A study of Arabidopsis thaliana with 24 samples.

Results

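Decapped mRNA was set against total mRNA in Arabidopsis thaliana inflorescence tissue on day 4 and on day 0 after activation of the floral regulator AP1. The comparison used 8 of the 24 arrays of the series, 4 titled for day 4 and 4 titled for day 0, paired by the set number in their titles. All plants were 35S:AP1-GR ap1 cal, so both days lacked the normal AP1 and CAL genes and carried AP1 fused to a steroid-binding domain. Inflorescences were treated just after bolting with 1 µM dexamethasone, which activates the fusion protein, in a solution that also held ethanol and Silwet L-77. Tissue of about 25 plants, taken close to the inflorescence surface, was pooled per time point, and the 4 sets were biologically independent, per the labels. The 35S promoter drives the fusion protein broadly, not in the AP1 pattern, and each value is the mean over a pool of plants and over all cell types in the tissue. Both days of a set carried decapped mRNA in the same dye, Cy3 in sets 1 and 2 and Cy5 in sets 3 and 4, so a within-set difference holds no constant dye effect of a probe.

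A 5′ cap protects an mRNA and helps it to be translated. In the main decay route, the poly(A) tail is shortened, the decapping enzyme removes the cap, and an exonuclease then degrades the body from its 5′ end. The fraction studied here had lost the cap but was still polyadenylated. AP1 starts flower formation from meristems that would otherwise go on making more meristems, and its activation in these plants starts many flowers at about the same time.

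Each deposited value was a log ratio of the 2 channels of 1 array. It was read as log2 of decapped over total mRNA, so a value above 0 stands for a transcript that was over-represented among decapped mRNA relative to the array's own centre. Log base 2 and this direction are likely but not stated, and how the authors centred the arrays is unknown. If the ratio runs the other way, each "higher" below reads "lower". A difference in the ratio can come from the decapped pool, from the total pool or from both, since neither channel was deposited alone. In such bulk tissue, fewer cells of a type and less RNA per cell cannot be told apart.

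Over all probes, the day 4 arrays of sets 1 to 4 had medians of -0.07, -0.04, -0.03 and -0.03, and the day 0 arrays had medians of -0.14, 0.04, -0.04 and -0.04. The SDs over all probes ran between 1.03 and 1.34 on the day 4 arrays and between 0.96 and 1.69 on the day 0 arrays, with the widest spread on day 0 in set 1. Of 13745 genes with a probe, 11160 had measured values on both days and were tested. On day 4, 812 of these genes had 4 values that lay within 0.05, on every array, of the values of at least 10 other probes, and on day 0 there were 751 such genes. Whether such runs of nearly equal values are measurements was not tested, and they are stated below for each named gene that has them. Of the defining markers, 1 of 4 for the meristem (CLV3) and 1 of 5 for young flowers (UFO) were measured, and none of 5 vascular markers was. A ratio gives no expression level, so the tissue could not be checked against its markers.

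No gene's decapped share differed between day 4 and day 0 past the threshold. In the limma fit paired by set, 0 of 11160 genes (0%) had an adjusted p under 0.05, and the smallest adjusted p was 1. At an unadjusted p under 0.05 there were 68 genes higher on day 4 (0.609%) and 64 lower on day 4 (0.573%). Together these were 1.18% of the genes, less than the share that a threshold of 0.05 passes where nothing differs. In 84 genes (0.753%) all 4 day 4 values lay above all 4 day 0 values, and in 51 genes (0.457%) they lay below. Of the 11160 genes, 503 were higher on day 4 in all 4 sets and 254 were lower in all 4 sets. None of these counts marks a gene as changed. Without set 1, the unadjusted counts were 199 genes higher and 413 genes lower on day 4, without set 2 there were 134 lower, and without set 4 they were 42 and 35.

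The precision set what could be seen. The median half-width of the 95% interval of a difference was 1.10 on the log2 scale for a single gene, before any adjustment over genes. Differences well above that size did not pass the adjusted threshold either, as the genes named below show. For 841 of the 11160 genes the whole 95% interval of the difference lay inside -1 to 1. These are intervals for single genes, not adjusted over genes, and the 841 were picked by them. Of the 841 genes, 97 were called above 0 and 98 below 0 on day 4. Of all 11160 genes, 927 (8.31%) were called above 0 and 2122 (19.0%) below 0. The p-values cover the spread between 4 sets of pooled plants.

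The level of the ratio itself was shared by both days. Over the 11160 genes, the day 4 and the day 0 means had a Pearson r of 0.91, a description over genes that share arrays and probes and are not independent replicates. In a limma fit of the 4 day 4 arrays against 0, 927 genes (8.31%) were called above 0 and 2122 genes (19.0%) below 0 at an adjusted p under 0.05. With each array centred on its median, the split was 1343 above and 1879 below. With no filter on shared values only 120 genes were called above and 172 below, and without the day 4 array of set 2, with no dye term, 592 were called above. Of the 927 genes above 0 on day 4, the day 0 mean was above 0 in 921, and all 4 day 0 values were above 0 in 693. Of the 2122 genes below 0 on day 4, the day 0 mean was below 0 in 2111, and all 4 day 0 values were below 0 in 1879. Only 2 genes had every day 4 value above 0 and every day 0 value below 0, and 13 genes had the reverse. The size of the ratio was lopsided, with 764 genes called on day 4 at -2 or below and 114 at 2 or above.

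**Figure D1:**
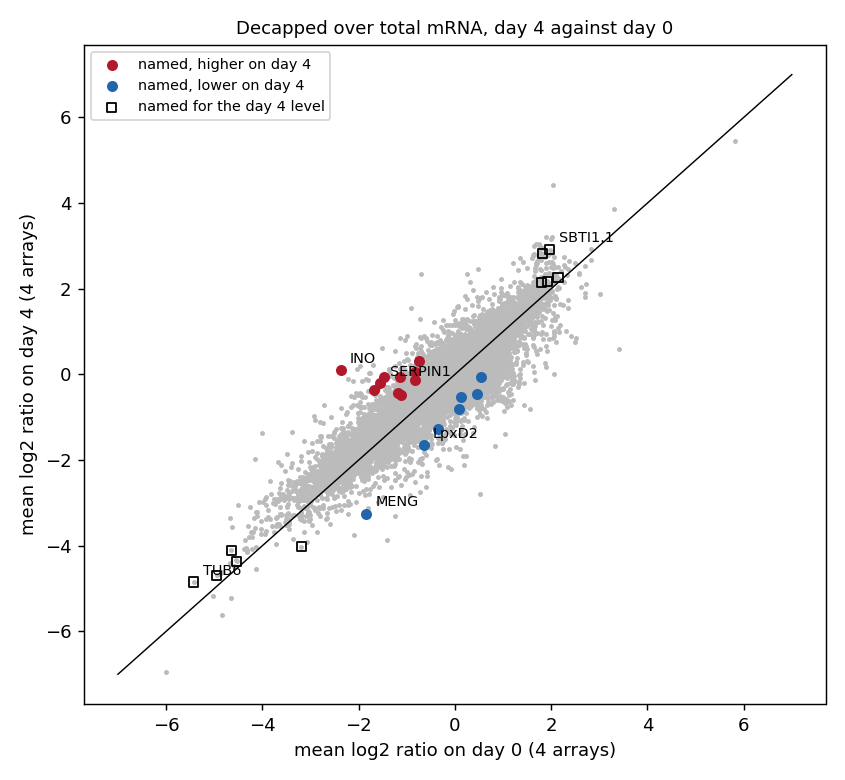
Each grey point is 1 of the 11160 genes, with its mean log2 ratio over 4 arrays on day 4 (vertical axis) and on day 0 (horizontal axis); the line marks equal values. Red and blue points are the named genes with symbols that were higher or lower on day 4 in all 4 sets, and open squares the genes named for their day 4 level. The cloud follows the line (Pearson r 0.91). Of the red and blue points, INO lies farthest from the line (difference 2.47) and SBT5.4 nearest to it (-0.61).

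Among genes with a symbol that were called on day 4, the 5 highest means were those of SBTI1.1, RR19, SBT1.3, TRM19 and PSY1R. SBTI1.1 and SBT1.3 are subtilisin-like proteases, RR19 a response regulator, TRM19 a protein of the family that recruits TON1 to microtubules, and PSY1R a receptor kinase for the sulfated peptide PSY1. Each level is that of its own probe, and since probes of 1 gene often differed, the order of the means is not an order of the transcripts. With no filter on shared values, 9 of the 10 genes named here for the highest and lowest levels lost their call. SBTI1.1 had values of 2.52, 3.00, 4.03 and 2.11 on day 4, against 5.74, 1.06, -1.71 and 2.80 on day 0. RR19 ran alongside it, with 2.59, 2.95, 3.43 and 2.31 on day 4 and 5.18, 1.15, -2.08 and 3.04 on day 0. In both genes the day 4 values were close together, while the day 0 values ranged from well below 0 in set 3 to far above 0 in set 1, and the days overlapped. The day 4 means were 2.91 ± 0.83 for SBTI1.1, 2.82 ± 0.48 for RR19, 2.26 ± 1.16 for SBT1.3, 2.17 ± 0.48 for TRM19 and 2.15 ± 0.71 for PSY1R (SD, n = 4; limma adjusted p between 0.020 and 0.039). On day 0 the last 3 of these had means of 2.14 ± 0.91, 1.92 ± 1.24 and 1.80 ± 0.93.

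The beta-tubulins TUB6 and TUB7 were among the 5 lowest. TUB6 had -3.87, -6.08, -3.53 and -5.91 on day 4, against -5.76, -8.24, -4.38 and -3.32 on day 0. TUB7 had -3.75, -3.82, -4.22 and -4.63 on day 4, against -5.65, -3.97, -4.49 and -4.47 on day 0. The tubulin genes are close paralogues, and whether their probes tell them apart is not known. The other 3 were EX1 (EXECUTER1, which acts in singlet oxygen signalling from chloroplasts), MOB1-like (a homologue of the yeast kinase activator Mob1) and ILR3 (a bHLH factor of iron homeostasis). Their day 4 means were -4.69 ± 1.43, -4.37 ± 1.57 and -4.02 ± 0.81, and their day 0 means were -4.94 ± 1.30, -4.53 ± 0.81 and -3.19 ± 0.61 (SD, n = 4). All 5 genes were below 0 on day 4 by limma (adjusted p between 0.020 and 0.023), and all of their arrays were below 0 on both days. Of the genes named for their day 4 level, ILR3 had the lowest value of day 4 minus day 0, -0.84 with a 95% interval of -1.97 to 0.30, and the intervals of the other 9 also included 0.

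The genes named next were picked by their difference: those with the smallest unadjusted p among genes with a symbol whose 4 within-set differences had 1 sign and whose days did not overlap. The conditions on symbol, sign and overlap helped to choose them, so they are not all at the edge of the distribution. Their unadjusted p in limma ran up to 0.22 (SBT5.4), and each had an adjusted p of 1 in limma. Among the 1282 tested genes with a symbol, there were 17 such genes on the higher side, of which 10 are named, and 7 on the lower side. Over all 11160 genes, the days did not overlap in 84 on the higher side (0.753%) and 51 on the lower side (0.457%). Of the 10 named on the higher side, all had day 0 means below 0 and day 4 means closer to 0.

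INO (AT1G23420, INNER NO OUTER) encodes a YABBY factor needed for the outer integument of the ovule. Its values were 0.04, -0.05, 0.11 and 0.31 on day 4, against -2.19, -2.69, -2.93 and -1.64 on day 0. Every day 4 value was near 0 and every day 0 value was far below it, and the difference was 2.47 ± 0.38 (SE; 95% interval 1.56 to 3.37; limma adjusted p = 1). On day 4 the values of 123 other probes lay within 0.05 of those of INO on all 4 arrays, while on day 0 no other probe's did.

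SERPIN1 encodes a protease inhibitor and JAL23 a jacalin-related lectin. SERPIN1 had -0.07, -0.04, -0.69 and -0.01 on day 4, against -1.72, -0.72, -1.81 and -1.93 on day 0, a difference of 1.34 ± 0.39 (SE). The gap between the days was narrow, since set 3 on day 4 lay only just above set 2 on day 0. JAL23 had 0.23, -0.37, -0.79 and -0.50 on day 4, against -2.62, -1.45, -1.13 and -1.53 on day 0, a difference of 1.33 ± 0.50 (SE) that was 0.82 without set 1.

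ALC (ALCATRAZ) is a bHLH factor of fruit opening, and SPL (SPOROCYTELESS, also NOZZLE) starts the sporogenous tissue of anthers and ovules. ALC had -0.39, 0.37, -0.55 and 0.36 on day 4, against -1.84, -1.27, -0.68 and -0.74 on day 0, a difference of 1.08 ± 0.41 (SE). SPL had 0.63, -0.65, -0.22 and 0.44 on day 4, against -1.15, -0.87, -0.65 and -0.66 on day 0, a difference of 0.88 ± 0.42 (SE) that was 0.58 without set 1. In both genes the day 4 values lay on either side of 0 and the day 0 values were all below it, and in SPL the lowest day 4 value nearly touched the highest day 0 value.

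DREB2C and tny (TINY) are AP2/ERF transcription factors of stress responses and growth. DREB2C had 0.02, 0.08, -0.14 and -0.22 on day 4, against -0.66, -0.53, -3.82 and -0.91 on day 0, so set 3 on day 0 stood apart. Without set 3 its difference of 1.41 became 0.66. For tny the set that stood apart was on day 4, with -0.19, -0.27, 0.07 and 1.65 on day 4 against -0.58, -0.89, -0.51 and -0.96 on day 0. Its difference was 1.05 ± 0.49 (SE) and 0.53 without set 4. The difference of each of these genes was thus more than 1.5 times as large with all sets as without the set that stood apart.

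The 3 others were HOS3-1 (related to yeast fatty acid elongases), PRA1.B6 (a prenylated Rab acceptor) and APG8A (the autophagy protein ATG8A). Their differences were 0.70 ± 0.39, 0.74 ± 0.42 and 0.65 ± 0.37 (SE), with 95% intervals that all included 0. The intervals of DREB2C, tny and SPL did too. PRA1.B6 had -0.41, -0.56, -0.27 and -0.50 on day 4, against -2.22, -0.99, -0.61 and -0.88 on day 0, and without set 1 its difference was 0.38. APG8A was measured by 2 probes, which gave day 4 means of -1.65 and 0.70 and day 0 means of -2.44 and 0.18, so they disagreed on the level while their differences were 0.78 and 0.52.

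**Figure D2:**
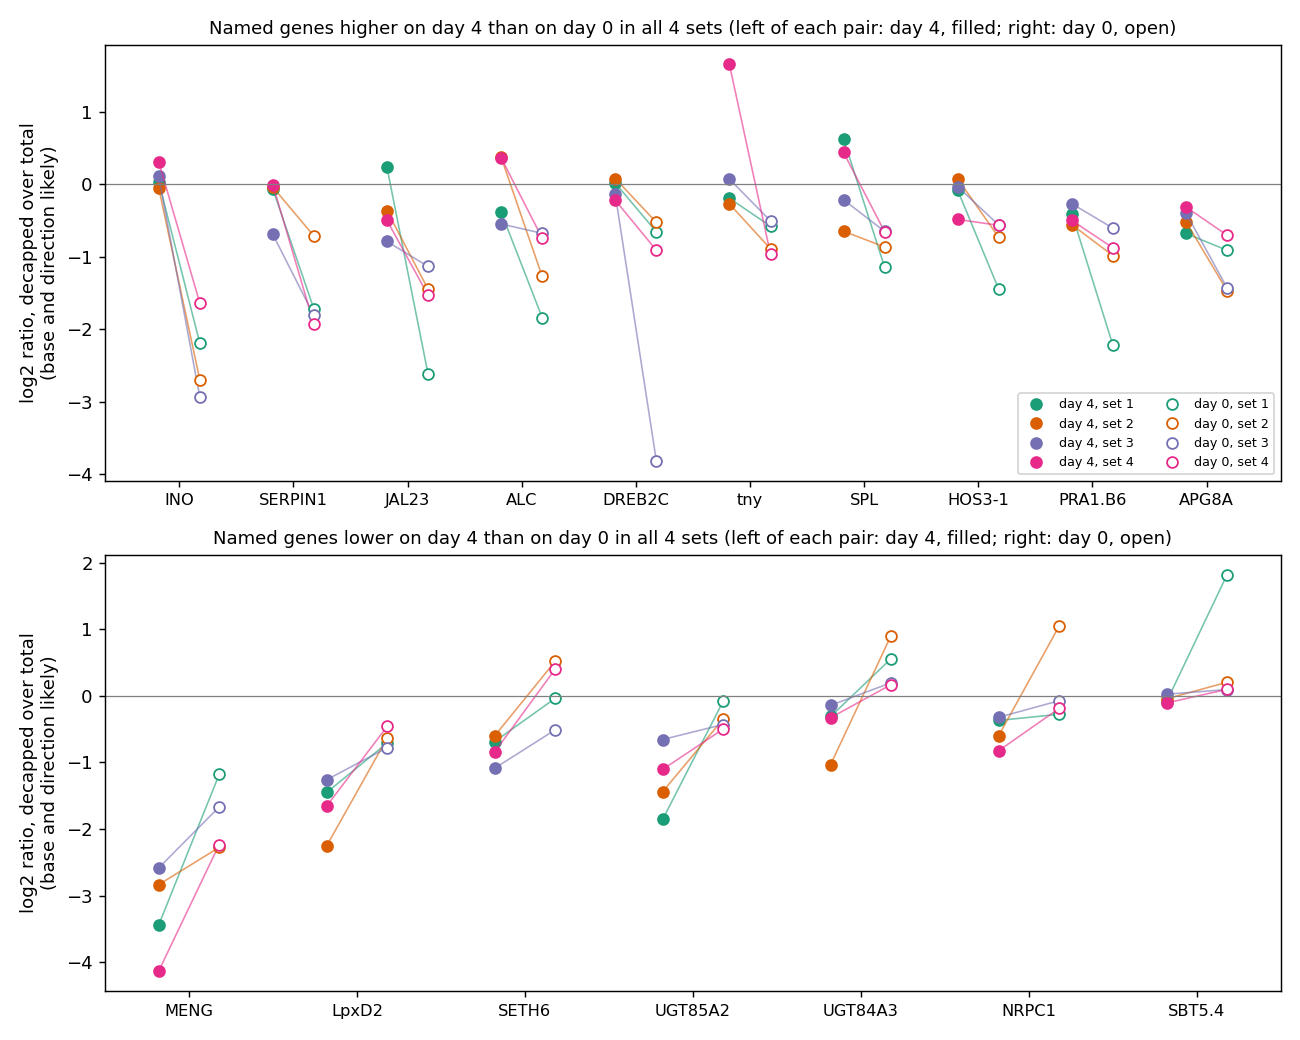
Log2 ratio of decapped over total mRNA (vertical axis) in each array for the 10 named genes higher (top) and the 7 lower (bottom) on day 4; filled points are day 4, open points day 0, and a line joins the 2 days of a set. The days do not overlap in any of these genes, by the rule that chose them. SERPIN1, DREB2C, tny, NRPC1 and SBT5.4 each have 1 array that stands apart from the other 3 of its day.

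On the lower side, MENG (AT1G23360) encodes the methyltransferase of phylloquinone synthesis in chloroplasts. It had -3.44, -2.84, -2.58 and -4.13 on day 4, against -1.18, -2.28, -1.67 and -2.23 on day 0. All 8 values were below 0, and the day 4 values were the lower ones, with a difference of -1.41 ± 0.44 (SE; 95% interval -2.45 to -0.37; limma adjusted p = 1). LpxD2, an acyltransferase related to bacterial lipid A synthesis, had -1.45, -2.25, -1.26 and -1.65 on day 4, against -0.71, -0.63, -0.78 and -0.46 on day 0. Its difference was -1.01 ± 0.39 (SE), and its day 0 values were close together (SD 0.14).

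UGT85A2 and UGT84A3 are sugar transferases that act on small molecules. UGT85A2 had -1.86, -1.44, -0.66 and -1.11 on day 4, against -0.08, -0.35, -0.43 and -0.50 on day 0, a difference of -0.92 ± 0.41 (SE). UGT84A3 had -0.31, -1.03, -0.14 and -0.33 on day 4, against 0.56, 0.91, 0.20 and 0.17 on day 0, a difference of -0.91 ± 0.42 (SE) that was -0.57 without set 2. UGT84A3 was the only one of the 17 named genes with every day 4 value on one side of 0 and every day 0 value on the other.

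SETH6 had -0.69, -0.60, -1.09 and -0.84 on day 4, against -0.04, 0.52, -0.51 and 0.40 on day 0, a difference of -0.90 ± 0.37 (SE). NRPC1, the largest subunit of RNA polymerase III, and SBT5.4, a subtilisin-like protease, each rested largely on 1 array. NRPC1 had -0.37, -0.60, -0.32 and -0.82 on day 4, against -0.28, 1.05, -0.07 and -0.19 on day 0, and without set 2 its difference of -0.66 became -0.33. SBT5.4 had -0.09, -0.05, 0.02 and -0.11 on day 4, against 1.82, 0.20, 0.09 and 0.10 on day 0, and without set 1 its difference of -0.61 became -0.17. On day 4 the SBT5.4 values were near those of 152 other probes.

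Among genes of any kind that met the same conditions, the differences farthest from 0 were those of INO, AT2G33850 and AT2G34320 on the higher side and of AT1G05540, AT1G02030 and AT1G67635 on the lower side. AT1G05540 had -2.67, -3.37, -1.71 and -3.44 on day 4, against 2.07, -0.82, 0.69 and 0.17 on day 0, a difference of -3.32 ± 0.50 (SE; limma adjusted p = 1). On day 0 its values were near those of 13 other probes. Of its 8 values, 4 were equal to that of another probe on the same array, and 516 of the 11160 genes had at least 1 such value. Whether these are measurements was not tested. AT2G33850 had 0.04, -0.06, 0.12 and 0.39 on day 4, against -2.12, -2.63, -2.45 and -0.89 on day 0, a difference of 2.14 ± 0.40 (SE). Its day 4 values lay near those of 96 other probes, as those of INO did near 123. AT2G34320 had 2.44, -0.47, -0.16 and 0.71 on day 4, against -1.89, -0.51, -0.60 and -3.03 on day 0, and in sets 2 and 3 its 2 days were close together. AT1G02030 had a difference of -1.84 ± 0.60 and AT1G67635 one of -1.75 ± 0.54 (SE).

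Genes of flower formation were read next as lists, none of which had a member past the adjusted threshold in limma, as 0% of all genes had. Of the 58 genes taken from the lists and markers, 55 had a difference that moved by over 1.5 times or changed sign when 1 set was left out, and the exceptions were ROXY2, PSAE-1 and AGL96. Of 32 floral regulators, 9 were measured; 5 had a difference above 0 and 4 below 0, with a median of 0.22 against 0.09 over all genes. Besides SPL, the KNU gene (KNUCKLES, which ends stem cell activity in the flower) had 0.54, -0.40, -0.75 and 0.83 on day 4, against -0.65, -0.73, -0.86 and 0.09 on day 0. JAG (JAGGED, which promotes organ growth) had -0.37, -0.91, -0.46 and 1.01 on day 4, against 1.77, 0.47, 0.15 and 0.10 on day 0. In KNU and JAG the days overlapped, and their differences were 0.59 ± 0.38 and -0.81 ± 0.56 (SE), against 0.39 and -0.36 without set 1. RBE (RABBIT EARS, of petal formation) had a difference of -0.26 ± 0.39 (SE), and its day 0 values were near those of 42 other probes.

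UFO, the F-box partner of LFY in floral identity, gave closer values over the arrays than CLV3, the other marker measured. It had 1.16, 0.90, 0.68 and 0.86 on day 4, against 0.95, 1.24, 0.73 and 1.10 on day 0, all above 0. Its difference was -0.11 ± 0.36 (SE; 95% interval -0.96 to 0.74), so a change of 1 in either direction lay outside the interval, and it was 0.071 with each array centred and scaled. On day 4 it was called above 0 by limma (adjusted p = 0.037). CLV3 encodes the peptide signal of stem cells. It had -0.52, -1.02, -0.52 and 0.60 on day 4, against -0.17, -0.83, -0.19 and -0.25 on day 0. Its difference was -0.01 ± 0.40 (SE; 95% interval -0.95 to 0.94), and the days overlapped.

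The other 3 measured members of the meristem and boundary list were LOB and LAS, which act at organ boundaries and in axillary meristems, and POL, a phosphatase of stem cell control. Of 22 listed genes, the 4 measured ones had differences between -0.11 and 0.22, with a median of 0.06. POL lay above 0 on every array, with 2.51, 1.96, 0.69 and 2.85 on day 4 and 0.88, 3.48, 1.68 and 2.42 on day 0. LOB lay below 0 on every array, with means of -1.27 ± 0.43 on day 4 and -1.49 ± 0.49 on day 0 (SD, n = 4). LAS did too, with means of -1.07 ± 0.77 on day 4 and -1.20 ± 0.32 on day 0 (SD, n = 4).

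Of 22 inflorescence and flowering-time genes, 7 were measured, with 2 differences above 0, 5 below 0 and a median of -0.08. FD, the bZIP partner of the flowering signal FT, had 0.22, 0.18, 0.36 and 0.46 on day 4, against -1.43, 0.44, 0.33 and 0.30 on day 0. Its 2 days thus lay close together in all sets but set 1, and its difference of 0.39 became -0.02 without that set. The MADS-box genes AGL24, AGL42, AGL71 and AGL72 had differences of -0.07, 0.24, -0.10 and -0.08. The floral repressors SMZ and SNZ had differences of -0.56 (-0.11 without set 1) and -0.19, and the day 4 values of SMZ lay near those of 39 other probes. On day 4, 1 of these 7 genes was called below 0 and none above 0, against 19.0% and 8.31% of all genes. It was AGL72, with a mean of -2.02 ± 0.54 on day 4 and -1.94 ± 0.55 on day 0 (SD, n = 4; limma adjusted p = 0.021 for day 4).

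Transcripts that small RNAs can cleave are of interest because a cut leaves a fragment without a cap. Of 62 such targets only 6 were measured, 2 with a difference above 0 and 4 below 0, with a median of -0.12. APS3 and APS4, ATP sulfurylases of the family that miR395 targets, had differences of 0.46 ± 0.46 and 0.56 ± 0.40 (SE), which were 0.083 for APS3 without set 3 and 0.33 for APS4 without set 1. The days overlapped in both genes, with APS3 at 2.11 ± 0.43 on day 4 and 1.65 ± 0.59 on day 0, and APS4 at -1.21 ± 0.69 on day 4 and -1.77 ± 0.29 on day 0 (SD, n = 4). PHV, a homeodomain factor of the upper leaf side and a target of miR165 and miR166, had 0.74, 0.25, 2.20 and 0.31 on day 4, against -0.61, 1.43, 1.86 and 1.68 on day 0. AGL16 had a difference of -0.06 ± 0.44 (SE). YAB3, a polarity gene of the lower side that is no such target, had a difference of -0.26 ± 0.43 (SE).

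Of 21 genes of the mRNA decay machinery, 6 were measured, 2 with a difference above 0 and 4 below 0, with a median of -0.25. VCS (VARICOSE), the scaffold of the decapping complex, had -0.30, 0.57, 1.91 and 0.14 on day 4, against -1.83, 1.61, 1.67 and 1.82 on day 0. LSM1B, a subunit of the ring that activates decapping, had 0.29, -0.01, -0.01 and 0.46 on day 4, against 0.12, -0.03, 0.04 and 0.44 on day 0. LSM1B was the most even of them, with values that matched set by set and a difference of 0.04 ± 0.35 (SE). RRP41, a core subunit of the exosome, lay below 0 on every array, with means of -2.31 ± 0.72 on day 4 and -2.05 ± 0.66 on day 0 (SD, n = 4). The other 3 loci of this list, AT1G79090, AT2G39260 and AT3G46960, had differences of 0.03, -0.49 and -0.80. AT3G46960 had 1.31, 1.79, 0.97 and 2.16 on day 4, against 0.68, 5.84, 1.43 and 1.49 on day 0, and without set 2 its difference was 0.28.

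**Figure D3:**
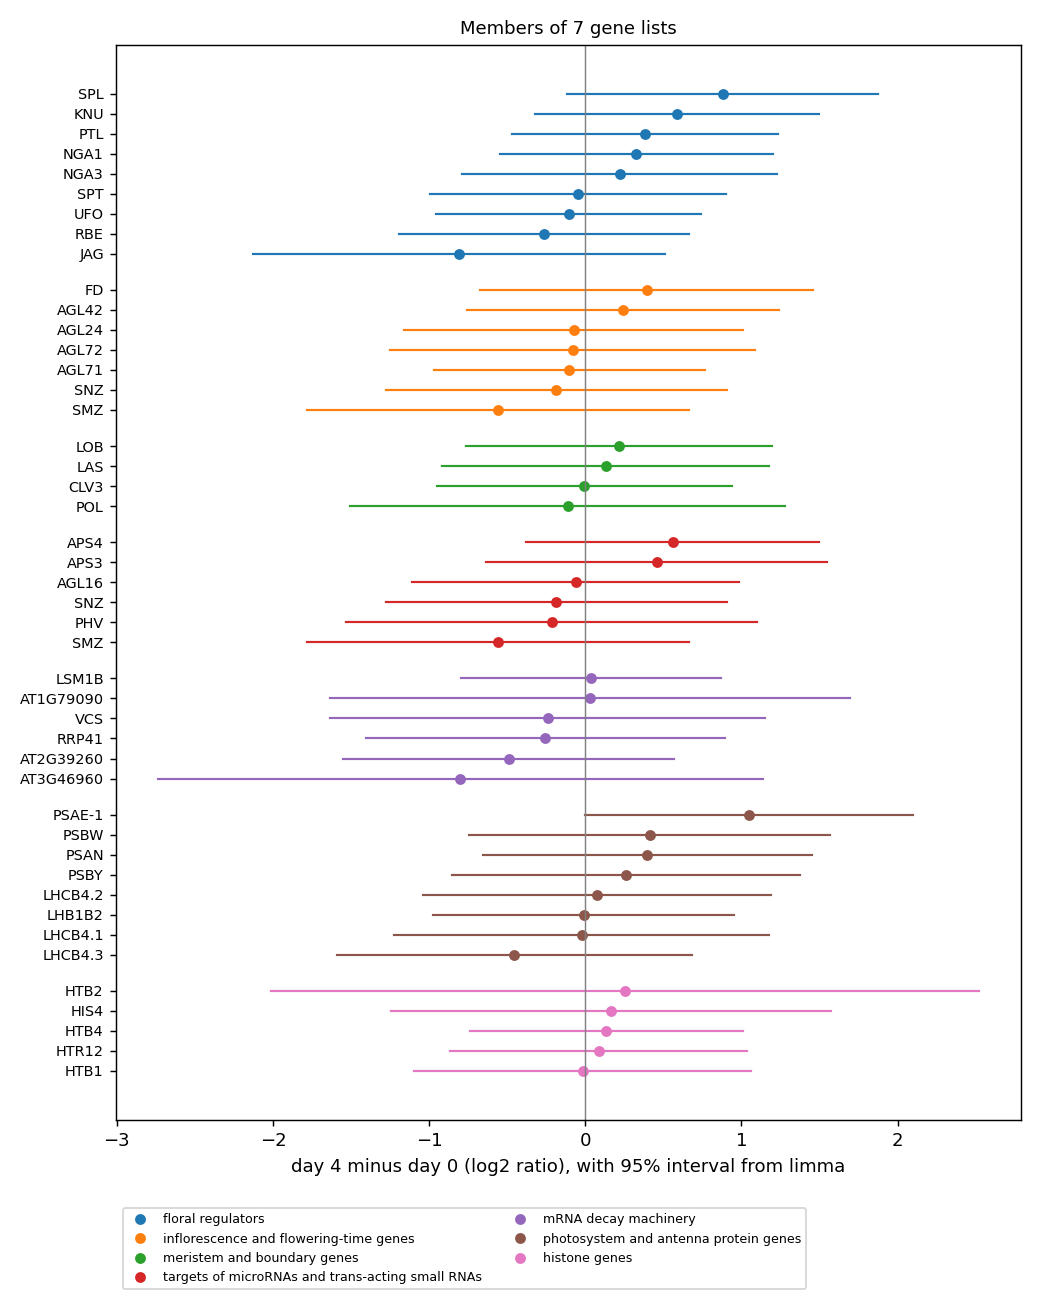
Day 4 minus day 0 of the log2 ratio (horizontal axis), with its 95% interval from limma, for each measured member of 7 gene lists, coloured by list; SNZ and SMZ belong to 2 lists and are drawn in both. All intervals include 0, and that of PSAE-1, which runs up to 2.10, starts just below it.

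The photosystem and antenna genes, which code for chloroplast proteins, lay mostly far below 0 on both days. Of the 8 measured, 6 were called below 0 on day 4 by limma at an adjusted p under 0.05, against 19.0% of all genes. The median difference was 0.17, with 5 above 0 and 3 below 0, and PSBY and LHCB4.2 turned below 0 (-0.18 and -0.32) with each array centred and scaled. PSBY, LHCB4.2, PSAN, LHCB4.3, PSBW and LHCB4.1 had day 4 means between -2.78 and -1.51, and day 0 means between -3.04 and -1.48. PSAE-1, a stromal subunit of photosystem I, had -0.11, -0.85, 1.12 and 1.26 on day 4, against -0.05, -2.57, 0.21 and -0.35 on day 0, a difference of 1.05 ± 0.44 (SE). LHB1B2 split by dye, below 0 in sets 1 and 2 and above 0 in sets 3 and 4 on both days, with a difference of -0.01 ± 0.41 (SE). The 2 probes of LHCB4.1 gave opposite differences, -0.63 and 0.59.

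Histone mRNAs are made mainly when DNA is copied. The 5 measured histone genes had differences between -0.02 and 0.26, with 4 above 0 and 1 below 0. With each array centred and scaled, HIS4 and HTB4 turned below 0 as well, at -0.032 and -0.18. HTB1, a histone H2B gene, had -3.07, -3.43, -3.69 and -1.87 on day 4, against -3.20, -2.74, -3.01 and -3.04 on day 0, and it was called below 0 on day 4 by limma (adjusted p = 0.021). HTB4 split by dye as LHB1B2 did, with -0.50, -1.44, 1.27 and 2.45 on day 4 and -0.86, -1.24, 1.40 and 1.94 on day 0, and its difference was 0.13 ± 0.37 (SE). The within-set differences of neither gene showed that split. HTB2 (H2B), HIS4 (H4) and HTR12 (the centromeric H3) had differences of 0.26, 0.17 and 0.09.

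Of the 4 cell division genes, HBT, a subunit of the anaphase-promoting complex, had 1.91, 1.61, 1.32 and 2.50 on day 4, against 0.69, 2.25, 0.88 and 0.61 on day 0. It was above 0 on all 8 arrays and was called on day 4 by limma (adjusted p = 0.023), with a difference of 0.73 ± 0.50 (SE) that was 0.34 without set 4. CDC27a also codes for a subunit of the anaphase-promoting complex, PRL for one of the complex that licenses DNA replication, and cdc2cAt for a cyclin-dependent kinase. Their differences were -0.03, 0.38 and -0.39, in that order. The day 4 values of CDC27a lay within -0.29 to 0.16, while its day 0 values spread between -1.71 and 1.58.

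Of 14 measured auxin genes, 8 had a difference above 0 and 6 below 0, with a median of 0.12. YUC11, an enzyme of auxin synthesis, had -0.34, -2.22, 0.65 and -3.86 on day 4, against -2.43, -2.48, 1.27 and -4.78 on day 0, so its arrays differed from each other far more than its days. Without set 1 its difference of 0.66 was 0.19. The repressors IAA31 and IAA29 had differences of 0.84 ± 0.70 and -0.41 ± 0.59 (SE), which were 0.031 and 0.082 without set 1, and GH3.1, which conjugates auxin, had one of -0.16 ± 0.36 (SE).

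Of 50 measured MADS-box, bZIP, WRKY and homeobox factors, 25 had a difference above 0 and 25 below 0, and the median was 0.00. AGL96 had -0.21, -0.08, -1.16 and 0.10 on day 4, against 0.78, 1.71, -0.36 and 1.42 on day 0. It was lower on day 4 in all 4 sets although the days overlapped, with a difference of -1.23 ± 0.38 (SE; limma unadjusted p = 0.015, adjusted p = 1). AGL95 had -0.37, 0.01, -0.22 and -1.33 on day 4, against -2.82, -2.18, 1.09 and -4.15 on day 0, a difference of 1.54 ± 0.73 (SE). It was 2.49 without set 3. AGL87 had a difference of 0.61 ± 0.52 (SE) and BZIP24 one of -1.19 ± 0.65 (SE), and without set 1 these were 0.076 and -0.56. BZIP24 had day 4 values near those of 152 other probes.

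Markers of cell types that appear in older flowers or other tissue were few. Of 7 anther and late flower markers, 3 were measured: the glutaredoxins ROXY1 and ROXY2 of anther development and the receptor kinase EMS1 of the anther tapetum. ROXY1 had -2.51, -3.01, -3.02 and -1.89 on day 4, against -3.04, -1.33, -2.32 and -2.40 on day 0, and ROXY2 had 1.52, -0.40, 0.67 and 1.10 on day 4, against -0.31, -0.22, 0.27 and -0.94 on day 0. Their differences were -0.34 ± 0.50 and 1.02 ± 0.50 (SE), and the days overlapped in both genes. EMS1 had a difference of -0.33 ± 0.60 (SE). Of 9 markers of epidermis, trichomes and stomata, the stomatal factors SPCH and MUTE were measured, with differences of 0.87 ± 1.06 and -0.45 ± 0.50 (SE), and the day 4 values of MUTE were near those of 127 other probes. The stress-induced zinc finger gene STZ had a difference of -0.28 ± 0.98 (SE).

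The 4 sets did not move together. The median within-set difference over all genes was 0.45 in set 1, -0.40 in set 2, -0.02 in set 3 and 0.11 in set 4, and the share of genes higher on day 4 was 67.6%, 32.8%, 48.7% and 55.3% in the same order. Over genes, the correlation of the differences of sets 1 and 2 was -0.30. That of sets 1 and 3 was -0.29 and that of sets 1 and 4 was -0.07. The other pairs of sets had correlations between 0.01 and 0.12. These describe genes on shared arrays and carry no test.

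The opposite shifts of sets 1 and 2 grew with gene span, the distance between the ends of a gene in RefSeq. Genes were put in 5 classes of about equal size by span, with class medians at 989, 1636, 2152, 2828 and 4169 bp. In set 1 the difference had medians of 0.06, 0.29, 0.60, 0.70 and 0.74. In set 2 it was -0.05, -0.27, -0.44, -0.52 and -0.61. In set 3 it ran between -0.05 and 0.06, and in set 4 it was 0.24 in the class of the shortest genes and -0.11 in that of the longest. The mean over the 4 sets had class medians between 0.05 and 0.11. The level of the ratio varied with span on both days, with class medians of -0.21, -0.37, -0.33, -0.16 and 0.11 on day 4 and -0.21, -0.39, -0.38, -0.18 and 0.13 on day 0. The part of gene span in the results for single genes was not tested.

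**Figure D4:**
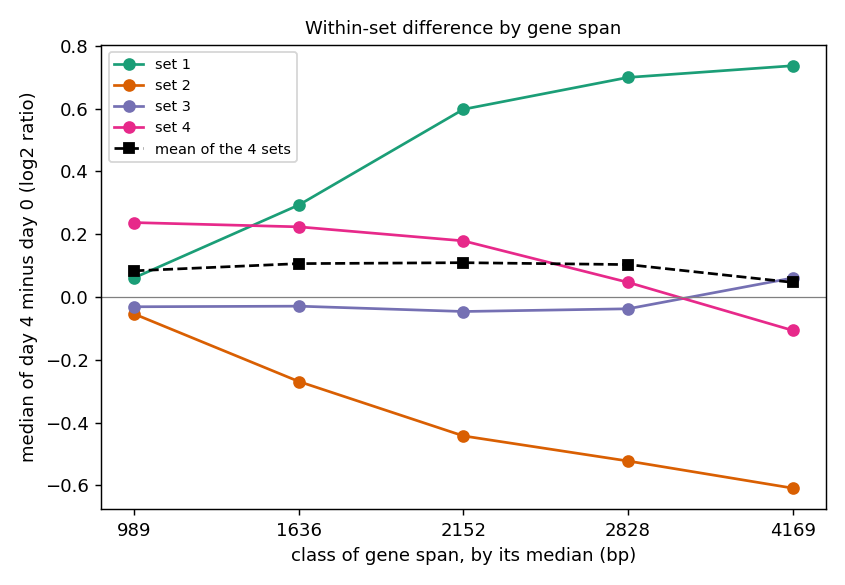
Median over genes of day 4 minus day 0 (log2 ratio, vertical axis) in 5 classes of gene span, placed by class at equal steps and marked with the class's median span in bp; coloured lines are the 4 sets and the dashed line the median of each gene's mean over the sets. Set 1 climbs to 0.74 and set 2 goes down to -0.61 with longer spans, while the dashed line stays between 0.05 and 0.11.

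Replicate probes of 1 gene gave a second view of precision. In 156 genes with at least 2 probes, the first 2 probes had day 4 means whose median gap was 1.49 and whose correlation over genes was -0.08, so probes of 1 gene often gave different levels. Their differences between the days had a median gap of 0.35 and a correlation of 0.13. By kind of gene, 144 pseudogenes had a median of 0.02 on day 4 and 0.11 on day 0, and 10968 protein-coding genes one of -0.19 on day 4 and -0.20 on day 0. The median difference was -0.07 for the pseudogenes and 0.09 for the protein-coding genes.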

How the data were processed

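The deposited table gave 1 value for each of 26102 probes on each of 24 arrays, between -10.53 and 10.07, read as log2 ratios that the authors had normalized; the method is not given in the sources used here, and signal over background is unknown. The platform annotation paired 13960 probes with 1 gene, 0 with several and 12142 with none; 13912 matched the RefSeq table of assembly TAIR10.1, which gave symbols and spans. Probes holding the most common set of 4 values of a day (4424 on day 0, 1857 on day 4), of equal size on all 4 arrays, were read as unmeasured on that day. Probes of 1 gene were averaged, and 2585 genes without a measured probe on both days were left out.

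Differences were fitted with limma 3.58.1 in R 4.3.3 with the set as a block (8 arrays), and day 4 levels with a dye term (4 arrays). Benjamini-Hochberg adjustment ran over 11160 genes with a threshold of 0.05. The fit was also run on simulated ratios with independent noise and no shift shared by the genes of a set. The sets studied here did shift, so that run cannot show how the fit performs on them. The pairing comes from the set numbers in the titles; deviations from the day means correlated between the days by -0.10, 0.16, 0.10 and 0.19 in sets 1 to 4. These hold the dye effect that both days of a set share. The dye-free contrasts, set 1 minus set 2 and set 3 minus set 4, correlated by -0.04 and 0.16, so the values of sets 1 and 2 show no pairing. The members, lists and rules were chosen with earlier results of these data known. Genes were named by the smallest p (10 a side, symbol, 1 sign, no overlap), the size of the difference (3 a side), the lists (all where at most 8 were measured, otherwise 2 a side), the 2 markers, and the day 4 level (5 a side). The filter on nearly equal values was chosen after seeing the data. No coordinates are given, since the annotation's build is not named.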

Additional observations from a re-analysis of the deposited data

Results flagged for a closer look

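In 10 of 180 groups of 4 values (90 named genes on 2 days), 1 array lay far from the other 3 by Dixon's test at the 95% level; chance flags about 1 in 20 groups. On day 4 these were SERPIN1, at -0.69 in set 3 against -0.07 to -0.01 in the other sets, and RRP41, at -1.25 in set 4 against -2.81 to -2.54. The other 8 were on day 0. In set 1 they were SBT5.4 at 1.82 (others 0.09 to 0.20), FD at -1.43 (others 0.30 to 0.44) and VCS at -1.83 (others 1.61 to 1.82). In set 2 they were NRPC1 at 1.05 (others -0.28 to -0.07), CLV3 at -0.83 (others -0.25 to -0.17), AT3G46960 at 5.84 (others 0.68 to 1.49) and HBT at 2.25 (others 0.61 to 0.88). In set 3 it was DREB2C at -3.82 (others -0.91 to -0.53).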

How the results depend on the processing

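No gene passed the adjusted threshold under any of the 16 alternatives for the difference, and the smallest adjusted p was 0.588 (limma, 24 arrays with the block). With no replicate block, a dye term and 8 arrays, 0 genes were called, and 76 were higher and 55 lower on day 4 at an unadjusted p under 0.05, so the block changed no call. The unadjusted counts higher and lower on day 4 (68 and 64 as reported) were 224 and 122 with 24 arrays and the block, 243 and 121 with no filter on shared values, 178 and 172 with array weights, and 151 and 116 with each probe on its own. The higher count was 142 with 24 arrays and no block, and 114 with each array centred and scaled. With a set left out the counts ran from 42 to 199 higher and from 35 to 413 lower. For the day 4 level, 1486 genes were called above 0 with 24 arrays. With no filter on shared values, 120 were above and 172 below 0, and 9 of the 10 genes named for that level lost their call. A fit of all 4 arrays without a dye term called 1355 above and 2679 below 0. With 1 array left out and no dye term, 592 to 1113 were called above and 1499 to 2506 below 0. Leaving out genes with nearly equal values gave 0 calls for the difference, 56 higher and 49 lower at an unadjusted p under 0.05, and 1125 above and 2475 below 0 on day 4. The cause of these shifts was not tested.

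None of the 22 genes named for their difference changed sign under any alternative. They were picked for within-set differences of the same sign in every set, so leaving a set out could not reverse them. Several other alternatives, such as the fit with no replicate block, gave the same differences as the main fit. The lack of reversals in these 22 genes therefore follows largely from how they were picked and is no test of their differences. Of the 80 named genes with a difference, 36 changed sign under at least 1 alternative, 61 of 1190 values in all. Under array weights the reversed values were 0.11 for AGL72, 0.045 for CLV3, 0.028 for AGL16, -0.36 for AT1G79090, -0.058 for SPCH, 0.020 for STZ, 0.0019 for LHCB4.1, -0.033 for HTR12 and 0.19 for IAA29. With each array centred and scaled the reversed values were 0.12 for POL, 0.056 for STZ, -0.18 for PSBY, -0.32 for LHCB4.2, -0.032 for HIS4, -0.18 for HTB4 and 0.071 for UFO. With a set left out, 34 of these changed sign, over ranges given in brackets: FD (-0.025 to 0.61), AGL24 (-0.32 to 0.35), SNZ (-0.50 to 0.21), AGL71 (-0.22 to 0.027), AGL72 (-0.37 to 0.43), CLV3 (-0.29 to 0.11) and LAS (-0.19 to 0.47). So did POL (-0.70 to 0.36), PHV (-0.74 to 0.17), YAB3 (-0.51 to 0.10), AGL16 (-0.39 to 0.27), VCS (-0.83 to 0.24), LSM1B (-0.0043 to 0.068) and AT1G79090 (-0.84 to 0.57). Further ones were AT3G46960 (-1.29 to 0.28), RRP41 (-0.69 to 0.13), ROXY1 (-0.63 to 0.11), EMS1 (-1.03 to 0.059), SPCH (-0.14 to 2.05), MUTE (-0.80 to 0.050) and STZ (-0.86 to 1.09). The same held for PSBY (-0.093 to 0.54), PSBW (-0.040 to 0.72), LHB1B2 (-0.22 to 0.17), LHCB4.2 (-0.24 to 0.45), LHCB4.1 (-0.33 to 0.51), HTR12 (-0.18 to 0.30) and HTB1 (-0.41 to 0.21). The rest were HIS4 (-0.29 to 0.75), HTB2 (-0.57 to 1.39), CDC27a (-0.66 to 0.46), PRL (-0.20 to 0.66), cdc2cAt (-1.43 to 0.25) and IAA29 (-0.87 to 0.082). The histone list's median was -0.032 with each array centred and scaled. The number of arrays limits the precision.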

Other observations

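The 9934 measured probes with no gene in the annotation gave 84 higher and 52 lower on day 4 at an unadjusted p under 0.05 in limma (1.37% of them), beside 1.18% of the genes. The only measured gene that RefSeq calls an rRNA had a mean of 5.45 on day 4 and 5.81 on day 0, and the only miRNA gene -0.01 on day 4 and 0.18 on day 0. Between single arrays, values over genes correlated by 0.60 to 0.77 within day 4, by 0.44 to 0.70 within day 0 and by 0.55 to 0.74 across the days.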
